A study of Mus musculus with 6 samples.

Results

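The glucocorticoid system was followed through 10 genes, of the 32285 in the count tables, across the cell subtypes of the young mouse brain after injection of lysophosphatidic acid (LPA). They were the 7 target genes Fkbp5, Tsc22d3, Hif3a, Zbtb16, Sgk1, Klf9 and Errfi1, the receptor genes Nr3c1 and Nr3c2, and Hsd11b1, an enzyme that makes the hormone active. The 7 targets were chosen from these same libraries because they had been seen lower after LPA, so their difference between the groups is what selected them. Their values are therefore given as a description, and where a target is said to be called this only marks that it passed the same limits as other genes and is no independent test of it. What is open to testing is the receptors, the enzyme and the other genes of the pathway. These were chosen with earlier results of these data known, so their tests are not fully independent of those results.

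LPA is a signalling phospholipid of blood, and its injection into a lateral ventricle is a mouse model of post-hemorrhagic hydrocephalus, in which the ventricles fill with cerebrospinal fluid and widen. C57BL/6 S-56 mice were injected there as neonates with LPA or with vehicle, a dilute solution of bovine serum albumin, and their brains were collected before weaning, without the olfactory bulbs and the cerebellum. Nuclei were sorted for the absence of NeuN, a protein of most mature neurons, and profiled by single-nucleus RNA-sequencing in 3 LPA libraries and 3 vehicle libraries. Both groups went through the same anesthesia and intracranial surgery, and no uninjected animals were analysed here. The labels give the treatment and a replicate number. The study's legends show these libraries as individual mice, so the error between libraries is that between mice and their processing.

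The matrices held 48852970 to 65688644 unique molecular identifiers (UMIs, each an RNA molecule counted once) per library, and 57443 nuclei passed the filters. The nuclei were grouped by their genes and named from fixed marker genes, and each name stands for nuclei that are like that type. In all, 42608 nuclei fell into 24 named subtypes, 21 of which had enough nuclei in every library to be compared (42242 nuclei), and 14835 nuclei (25.83%) had no name. Neurons of 6 subtypes were among them in spite of the sort. The groups differed in ways other than the genes described here. The median mitochondrial share per nucleus was 0.00915% to 0.0257% in the LPA libraries and 0.0493% to 0.0614% in the vehicle libraries, without overlap. By Xist and the Y-linked genes, LPA 1, vehicle 1 and vehicle 3 were male and the other libraries female. Any pair of libraries shared 268 to 303 cell barcodes (2.13% to 3.47% of the smaller library).

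Glucocorticoids, corticosterone in the mouse, enter cells and bind the glucocorticoid receptor (Nr3c1) or, with higher affinity, the mineralocorticoid receptor (Nr3c2). The receptors are held ready by a chaperone complex around Hsp90, move into the nucleus once they carry hormone, and act on target genes through DNA elements built from a pair of inverted half-sites. Fkbp5 is a co-chaperone that lowers the receptor's affinity for hormone, so its induction closes a feedback loop. Hsd11b1 regenerates corticosterone from its inactive keto form inside the cell. In the brain, glucocorticoids act on glia, vessels and meninges as well as on neurons.

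The promoters of the members were read from RefSeq (GRCm38.p6, 250 bases before to 50 bases after the annotated start). Entries of 8 of the 10 genes (16 promoters) were used. Zbtb16 had no entry, and Nr3c1 was left out of the search. The half-site was searched as AGAACA or TGTTCT, which are each other's reverse complement and so cover both strands. It was present in 4 of the 16 promoters, all of Sgk1 or Tsc22d3. Of all 32851 promoters of the same length, 6233 (18.97%) held it. The looser palindrome GNACANNNTGTNC was in 156 promoters (0.475%), and both half-sites 3 bases apart, which includes both of the shorter motifs, were in 3 promoters, one of them Sgk1. A promoter each of Sgk1, Tsc22d3 and Fkbp5 is shown because they set out this contrast. Sgk1 and Tsc22d3 have several entries, some without a half-site, and the entry with the most half-sites is shown. Fkbp5 has no other entry, so the genes also differ in the number of entries searched. The Sgk1 entry shown holds the full palindrome and a further half-site, and that of Tsc22d3 holds 1 half-site. That of Fkbp5, the target with the largest fold difference below, holds no match in this window. Capitals mark the half-sites, with the spacer between them where they form the palindrome.
Sgk1, chr10:21993640-21993939, plus strand: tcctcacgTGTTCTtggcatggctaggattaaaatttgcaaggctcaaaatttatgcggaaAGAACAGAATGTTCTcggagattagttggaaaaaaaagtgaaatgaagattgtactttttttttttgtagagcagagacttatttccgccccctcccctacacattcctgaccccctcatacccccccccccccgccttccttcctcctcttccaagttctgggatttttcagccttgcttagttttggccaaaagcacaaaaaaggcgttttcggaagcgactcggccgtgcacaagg
Tsc22d3, chrX:140600473-140600772, minus strand: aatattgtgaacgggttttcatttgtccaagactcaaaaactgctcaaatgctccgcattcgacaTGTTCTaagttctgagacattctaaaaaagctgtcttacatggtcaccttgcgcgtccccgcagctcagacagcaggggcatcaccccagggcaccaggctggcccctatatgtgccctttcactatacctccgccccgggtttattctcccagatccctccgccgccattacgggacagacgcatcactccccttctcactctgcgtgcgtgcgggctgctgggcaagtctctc
Fkbp5, chr17:28486100-28486399, minus strand: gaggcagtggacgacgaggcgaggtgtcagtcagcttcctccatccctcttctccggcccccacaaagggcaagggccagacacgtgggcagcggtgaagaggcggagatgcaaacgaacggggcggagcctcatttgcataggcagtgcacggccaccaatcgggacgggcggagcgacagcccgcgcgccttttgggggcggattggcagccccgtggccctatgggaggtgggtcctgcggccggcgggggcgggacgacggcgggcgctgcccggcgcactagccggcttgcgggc
A match is a description of the letters in the window and not a site of binding. Of the other genes known to be induced by glucocorticoids, 28 of 32 had a promoter entry, and the half-site was in that of 4 genes, Bcl6, Cd163, Fam107a and Sult1a1. Of all genes with an entry 21.28% held it. The looser palindrome was in a promoter of Fam107a, Map3k6 and Mt1, where 0.537% of all genes with an entry held it.

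The members were first set out by where they were expressed in the vehicle libraries, among the 21 subtypes compared. Levels are given as CPM, counts per 1000000 UMIs of that subtype and library, scaled by edgeR's TMM factors (mean ± SD over n = 3 libraries). They come from 3′ tags that include introns and are not scaled to gene length, so they are compared between subtypes and not between genes.

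Fkbp5 was highest in border macrophages (763 ± 145 CPM), meningeal cells (682 ± 20.9) and homeostatic microglia (402 ± 67.8). Macrophages and meningeal cells overlapped in their libraries, and microglia stood below both and above all other subtypes, the next being Drd1 striatal neurons (88.2 ± 9.94). The lowest level, in multiciliated ependymal cells, was 16.0 ± 4.97 CPM. Zbtb16, a zinc finger repressor also called PLZF, was highest in meningeal cells (459 ± 68.3), although its libraries there overlapped with those of the neurons carrying Dlx1, Dlx2 and Sp8 (306 ± 132). Hif3a, a member of the hypoxia-inducible factor family, was highest in astrocytes. It was 339.5 ± 3.85 CPM in those carrying Slc6a11 and Agt, 332 ± 14.5 in telencephalic astrocytes and 151 ± 25.1 in Gfap-rich astrocytes. Border macrophages, with 19 UMIs in all, were next (117 ± 23.95) and overlapped with the Gfap-rich astrocytes. Klf9, a Krüppel-like transcription factor, was also highest in telencephalic astrocytes (326 ± 5.57) and in the Slc6a11 astrocytes (314 ± 13.3).

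Tsc22d3 encodes the leucine zipper protein GILZ, which carries anti-inflammatory effects of glucocorticoids. It was highest in border macrophages, from 42 UMIs in all (233 ± 83.4 CPM), with myelin-forming (169 ± 17.8) and mature oligodendrocytes (164 ± 9.44) next and overlapping. Sgk1, the serum and glucocorticoid regulated kinase that acts on ion transport, was highest in choroid plexus cells (382 ± 16.0) and committed oligodendrocyte precursors (362 ± 14.4), which overlapped, and lowest in telencephalic astrocytes (15.6 ± 1.82). Errfi1, a feedback inhibitor of the epidermal growth factor receptor, stood apart among the 21 subtypes in meningeal cells (151 ± 20.5). Mature oligodendrocytes were next there (45.9 ± 6.62). In the few smooth muscle nuclei, which were not among those subtypes, Errfi1 was higher in vehicle 2 and vehicle 3, without TMM scaling. It was 610.5 CPM in vehicle 2 (10 UMIs, 6 nuclei) and 485.8 CPM in vehicle 3 (10 UMIs, 8 nuclei). No Errfi1 UMI was counted in the 2 smooth muscle nuclei of vehicle 1.

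The receptors were broader. Nr3c1 ranged from 46.4 ± 8.34 CPM in newly formed oligodendrocytes to 308 ± 166 in border macrophages, a 6.64-fold range and the narrowest of the members. The macrophage level rested on 62 UMIs, and endothelial cells (264 ± 46.9) overlapped with it. Nr3c2 had a 36.7-fold range, from 24.7 ± 9.97 CPM in newly formed oligodendrocytes to 908 ± 27.4 in meningeal cells. The Slc6a11 astrocytes followed (499.7 ± 51.5), apart from both neighbours in the order. Hsd11b1 was close to confined to astrocytes, with 42.9 ± 2.52 CPM in telencephalic astrocytes, 15.8 ± 2.70 in the Slc6a11 astrocytes and 9.83 ± 6.47 in Gfap-rich astrocytes. No other subtype exceeded 6.57 ± 3.56 CPM, and no Hsd11b1 UMI was counted in homeostatic microglia of the vehicle libraries.

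**Figure D1:**
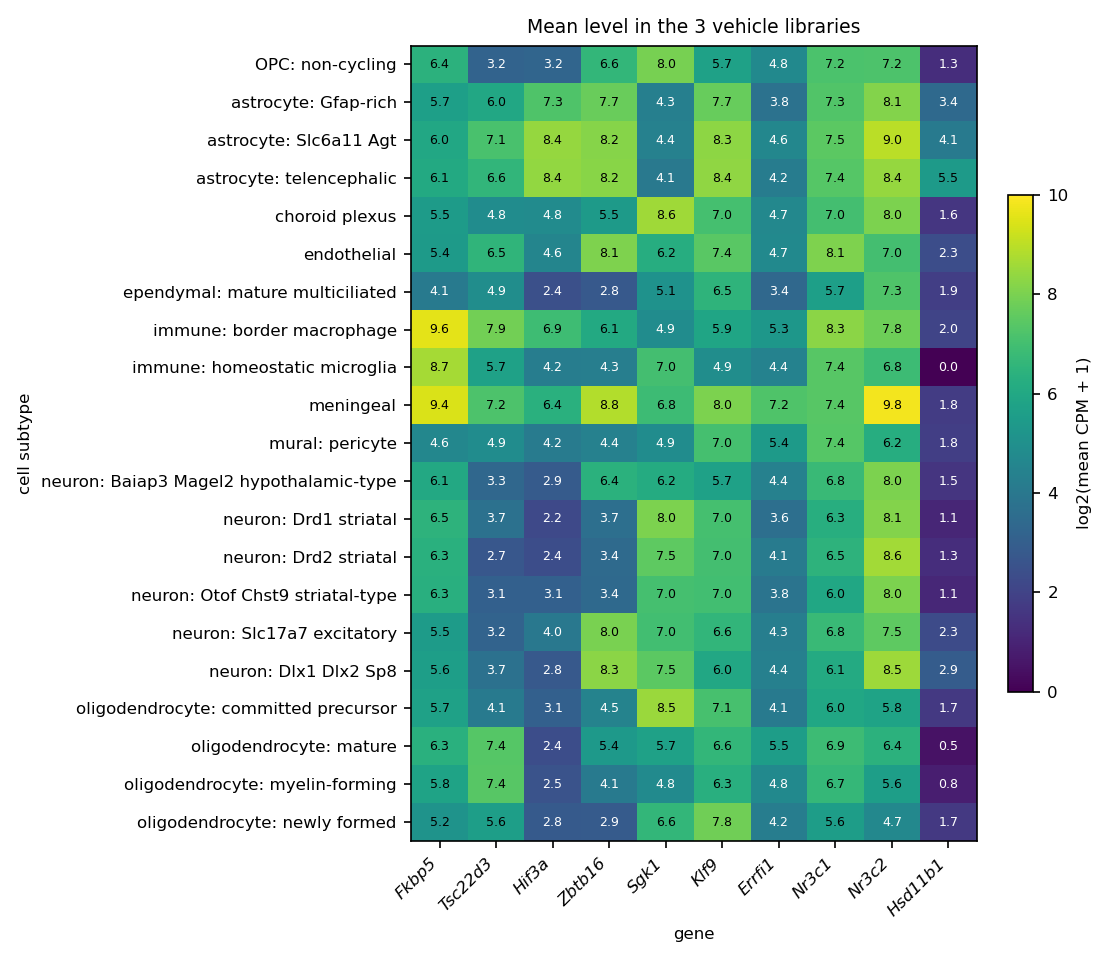
Heat map of the mean level of each member (columns) in each cell subtype (rows) over the 3 vehicle libraries, as log2 of the mean CPM plus 1, shown by color and number. Fkbp5 is brightest in border macrophages, meningeal cells and homeostatic microglia, Hif3a in the 3 astrocyte subtypes, and Hsd11b1 in telencephalic astrocytes, where its mean is 42.9 CPM.

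For likeness of pattern, log2(CPM + 1) of the vehicle means was correlated over the 21 subtypes with each of 973 genes tested in every subtype. Fkbp5 was most like Hexa (Pearson's r = 0.83), Mbnl1 and Ncoa3. Tsc22d3 was most like Atf7 (r = 0.86), and Nr3c1 most like Ctnnd1 (r = 0.85), Atp7a and Bmpr2. Hif3a was most like Apoe (r = 0.86), and both Hif3a and Hsd11b1 had the glutamate transporter Slc1a2 among their 3 nearest genes (r = 0.85 and 0.83). Nr3c2 was most like Npepps (r = 0.86), Zbtb16 like Ncoa1 (r = 0.73), Errfi1 like Nfat5 (r = 0.81), Sgk1 like Gm47283 (r = 0.71) and Klf9 like Arhgef12 (r = 0.61). Between Fkbp5 and Nr3c1 the correlation was 0.50. The subtypes share libraries and the values are descriptions.

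LPA and vehicle were then compared in each subtype on UMIs summed per library, by edgeR's quasi-likelihood test with Benjamini-Hochberg adjustment over all genes of that subtype. A call needed both an adjusted p under 0.05 and a difference between the groups of 0.25 or more on the log2 scale, in either direction. A filter on low counts let 122 of the 147 pairs of a target and a subtype into the fit. A pair could pass it through the group with the higher counts alone, so the counts below are not counts over all 7 targets in all 21 subtypes. Of the 122 pairs, 105 (86.07%) had a negative log2 fold change, with a median of -0.32, against 50.81% negative and a median of -0.00433 over all 206641 pairs of a gene and a subtype. Among the target pairs 25 were called lower, where 0.441% of all pairs were called lower, 0.568% higher and 1.01% either way. In 48 of them every LPA library lay below every vehicle library (6.92% of all pairs) and in 4 every LPA library lay above (7.37% of all pairs). Since lower levels in the LPA libraries were what chose the targets, nothing is read from these counts. The choice was also made on subtypes, so the account by subtype that follows is a description too.

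**Figure D2:**
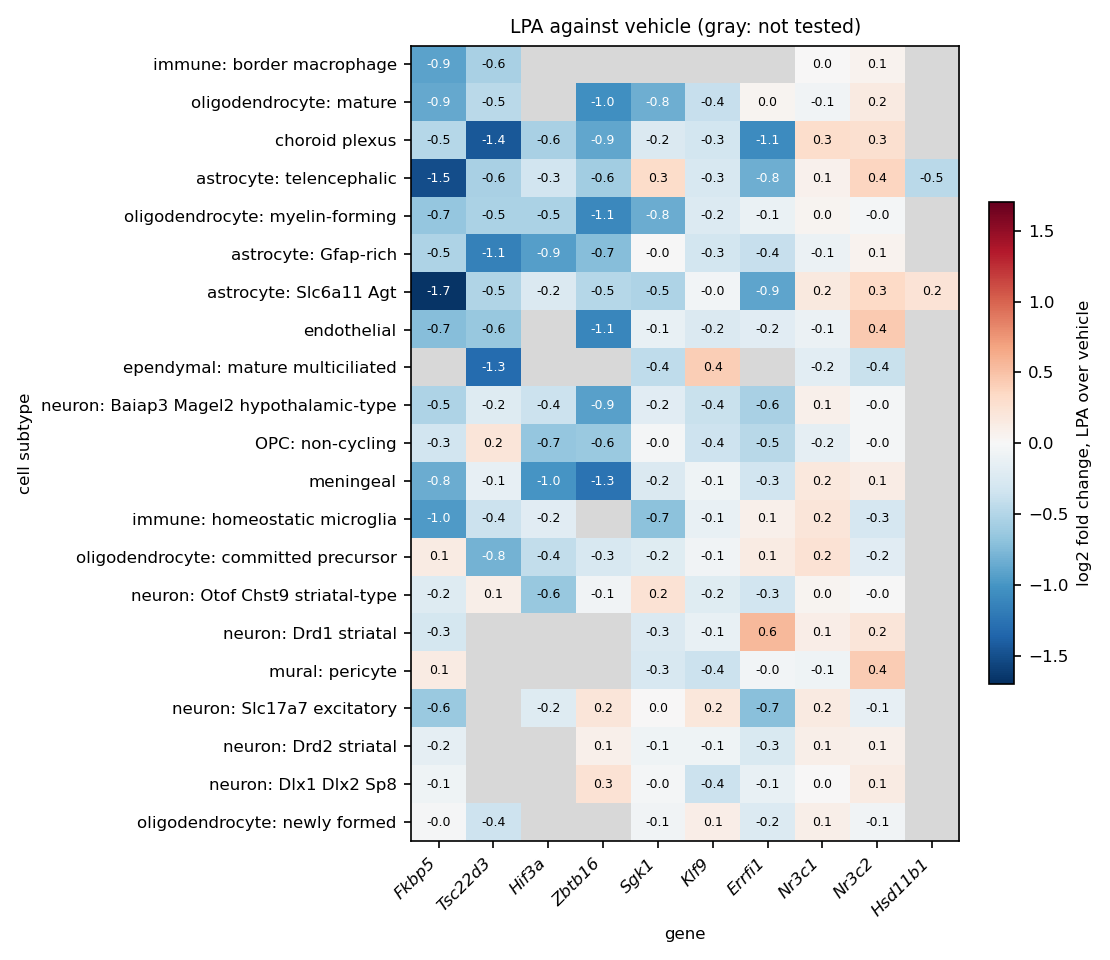
Heat map of the log2 fold change, LPA over vehicle, of each member (columns) in each cell subtype (rows, ordered by the median of the targets), with blue for lower and red for higher in LPA libraries and gray for pairs not tested. The 7 columns of targets are mostly blue in the upper rows, to -1.67 for Fkbp5 in Slc6a11 astrocytes, and mixed in the striatal, Slc17a7 and Dlx neurons, from -0.71 for Errfi1 in Slc17a7 neurons to 0.55 for Errfi1 in Drd1 neurons, while the Nr3c1 column stays between -0.18 and 0.30.

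Telencephalic astrocytes had 6 of the 7 targets called lower, all but Sgk1, where 1.19% of all genes tested there were called lower. Fkbp5 was 31.2, 23.1 and 17.7 CPM in LPA 1, 2 and 3 and 38.7, 59.9 and 100.1 CPM in vehicle 1, 2 and 3. The groups did not overlap, but vehicle 1 was closer to LPA 1 than to vehicle 3, and the log2 fold change was -1.50 ± 0.23 (SE). Errfi1 was 10.5, 10.7 and 7.63 CPM against 17.7, 17.1 and 16.9 CPM, a difference of -0.83 ± 0.20 without overlap. Tsc22d3 (-0.55 ± 0.10), Hif3a (-0.33 ± 0.07) and Klf9 (-0.28 ± 0.07) were likewise lower in each LPA library than in each vehicle library. Zbtb16 was 269, 149 and 172 CPM in the LPA libraries and 271, 254 and 361 CPM in the vehicle libraries, so LPA 1 lay within the vehicle range (-0.59 ± 0.15). Sgk1, at its lowest level of any subtype, was 24.7, 14.2 and 19.4 CPM in LPA libraries and 17.7, 15.0 and 14.2 CPM in vehicle libraries, and the groups overlapped.

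In the Slc6a11 astrocytes Fkbp5 was 26.2, 18.6 and 13.1 CPM after LPA and 44.5, 66.3 and 76.8 CPM after vehicle. The groups were well apart and the difference was the largest of any member in any subtype, -1.67 ± 0.21 or 3.19-fold. Tsc22d3 was the other target called lower in these cells (-0.51 ± 0.11), where 0.222% of all genes tested were called lower. Errfi1 was 12.5, 12.4 and 13.1 CPM against 25.1, 18.8 and 27.4 CPM (-0.89 ± 0.24), without overlap and not called. Klf9 was 303, 296.5 and 318.5 CPM against 306, 307 and 329.8 CPM, which overlapped (-0.04 ± 0.08).

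Gfap-rich astrocytes had Tsc22d3, Hif3a and Zbtb16 called lower, where 3.2% of all genes tested there were called lower. Tsc22d3 was 37.6, 29.4 and 20.2 CPM in LPA libraries and 54.0, 75.5 and 59.3 CPM in vehicle libraries (-1.15 ± 0.23). Hif3a was 104, 71.7 and 66.7 CPM against 128, 178 and 148 CPM (-0.94 ± 0.17). Both pairs of groups were apart. Fkbp5 was 40.1, 30.5 and 33.7 CPM against 28.4, 40.9 and 79.8 CPM, so vehicle 1, with 10 UMIs, was below all LPA libraries (-0.52 ± 0.26, and 0.11 ± 0.32 at Leiden resolution 2). A cluster led by Aspg, Ggta1 and Gfap held 770 of these nuclei from LPA libraries and 4 from vehicle libraries, and the 3 other clusters held both groups in similar numbers. In those 3, pooled over libraries and without TMM scaling, Tsc22d3 was 19.4, 56.3 and 59.2 CPM after LPA against 56.3, 62.5 and 87.9 CPM after vehicle, so the difference was small in the cluster led by Myoc and Fgd2 (56.3 against 62.5 CPM). Hif3a was 62.5, 82.9 and 109 CPM against 135, 152 and 189.6 CPM, lower after LPA in all 3. The nuclei also differed in number per library, 444 to 550 in the LPA libraries and 134 to 265 in the vehicle libraries, and in the immediate early genes. Fos was 50.3 to 69.4 CPM after LPA and 2.28 to 6.29 CPM after vehicle (log2 fold change 3.77 ± 0.38, edgeR adjusted p = 2.17e-07), and Junb, named after its value was seen, was higher too (1.85 ± 0.38, edgeR adjusted p = 0.00217). Of all genes tested there 5.78% were called higher. The part of these differences in the values of the targets was not tested.

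Meningeal cells had Fkbp5, Hif3a and Zbtb16 called lower, where 0.512% of all genes tested there were called lower. Fkbp5 was 396, 427 and 317 CPM in LPA libraries and 682, 661 and 703 CPM in vehicle libraries (-0.84 ± 0.10). Zbtb16 was 215, 212 and 145 CPM against 498, 380.5 and 499.7 CPM, the largest difference of Zbtb16 in any subtype (-1.26 ± 0.13). Hif3a was 45.2, 40.6 and 36.5 CPM against 81.4, 73.8 and 88.9 CPM (-0.996 ± 0.13). For all 3 genes the LPA libraries lay well below the vehicle libraries, by more than the spread within either group. Meningeal nuclei numbered 306 to 512 in the LPA libraries and 681 to 1202 in the vehicle libraries, and were not split into subtypes. Whether their make-up differed between the groups, and its part in these values, was not tested. Tsc22d3 in the same nuclei was 132, 127 and 142 CPM against 131, 165 and 142 CPM, which overlapped (-0.14 ± 0.10), and so did Klf9 (-0.07 ± 0.09). The Tsc22d3 value moved with the clustering that named these nuclei, to -0.78 ± 0.31 at Leiden resolution 2 and to 0.79 ± 0.16 with no mitochondrial limit, where it was called higher, whereas Fkbp5 (-0.89 and -0.90), Zbtb16 (-1.34 and -1.35) and Hif3a (-1.09 and -1.17) stayed close to their values above. Without that limit 566 genes were called in meningeal cells, against 135 with it.

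In myelin-forming oligodendrocytes Fkbp5, Tsc22d3, Zbtb16 and Sgk1 were called lower, where 0.453% of all genes tested there were called lower. Mature oligodendrocytes had the same 4 targets called, where the share was 0.232%. Tsc22d3 in myelin-forming cells was 118, 117 and 114 CPM after LPA and 153, 167 and 188 CPM after vehicle (-0.54 ± 0.08). Sgk1 was 12.02, 17.2 and 14.9 CPM against 30.7, 24.5 and 25.3 CPM in myelin-forming cells (-0.84 ± 0.15). In mature oligodendrocytes Sgk1 was 31.7, 35.5 and 18.6 CPM against 54.9, 49.9 and 51.0 CPM (-0.84 ± 0.18). All of these were apart. These 2 subtypes were the only ones in which Sgk1 was called with all libraries in the fit. It was called in none without LPA 3 or by DESeq2, in 1 without any other single library but LPA 2, and in 3 without LPA 2, meningeal cells among them (-0.61 ± 0.12, against -0.24 ± 0.15 with all libraries).

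Earlier stages of the same lineage had no target called. In newly formed oligodendrocytes Fkbp5 was 31.9, 29.6 and 41.7 CPM in LPA libraries and 33.5, 39.3 and 31.1 CPM in vehicle libraries (-0.02 ± 0.18), and in committed precursors it was 65.4, 52.8 and 54.1 CPM against 44.7, 59.8 and 49.3 CPM (0.14 ± 0.15). Both overlapped. Sgk1 was much higher in the committed precursors than in mature cells, and there it was 291, 313 and 332 CPM against 359, 349 and 378 CPM, a small difference without overlap (-0.21 ± 0.08). Whether the difference after LPA changed with stage was not tested.

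Homeostatic microglia had 1 target called lower, where 0.634% of all genes tested there were called lower. Fkbp5 was 232, 184 and 173 CPM after LPA and 434, 325 and 449 CPM after vehicle (-0.96 ± 0.15), from 57 to 154 UMIs a library. A cluster led by Adamts16 and Cd83 held 285 of these nuclei from LPA and 17 from vehicle libraries. In the 3 other clusters, which held both groups, Fkbp5 pooled over libraries was 191, 208 and 229.8 CPM after LPA against 432, 329 and 349 CPM after vehicle. Sgk1 was 84.1, 91.1 and 53.3 CPM against 116, 124 and 142 CPM, without overlap and not called (-0.69 ± 0.22). In border macrophages, with 17 to 60 nuclei a library, Fkbp5 was 435, 344 and 418 CPM against 870.4, 598 and 819.9 CPM, again without overlap and not called (-0.91 ± 0.27). Only 1172 genes passed the filter there and none was called in either direction by edgeR.

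Endothelial cells had Zbtb16 called lower, at 200.4, 105 and 78.5 CPM after LPA and 224, 246 and 331 CPM after vehicle (-1.10 ± 0.21), LPA 1 being close to vehicle 1. Of all genes tested there 0.0865% were called lower. Pericytes had no target called, and Fkbp5 there was 28.2, 21.5 and 32.7 CPM against 17.6, 20.7 and 33.5 CPM, which overlapped. In choroid plexus cells all 7 targets had a negative fold change and none was called. For Fkbp5 there the value was -0.49 ± 0.27 with the nuclei that Scrublet marked as doublets and 0.04 ± 0.38 without them. Tsc22d3 there was 5.70, 7.88 and 16.0 CPM, from 4 to 13 UMIs, against 21.1, 29.8 and 32.4 CPM, from 15 to 26 UMIs (-1.44 ± 0.37).

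Among neurons, those of hypothalamic type, marked by Baiap3 and Magel2, had Zbtb16 called lower, where 0.116% of all genes tested there were called lower. It was 48.6, 42.4 and 39.7 CPM in LPA libraries and 82.0, 77.4 and 85.5 CPM in vehicle libraries, with a narrow spread in both (-0.92 ± 0.12). In the Dlx neurons, where Zbtb16 was higher, it was 415, 365 and 305 CPM against 446, 286 and 184 CPM (0.25 ± 0.26), and in Slc17a7 excitatory neurons 367, 254 and 254 CPM against 249, 254 and 256 CPM (0.21 ± 0.13), and both overlapped. Fkbp5 in Drd2 striatal neurons was 75.9, 69.6 and 71.0 CPM against 76.8, 82.6 and 80.5 CPM, apart by a small distance (-0.15 ± 0.11). In Slc17a7 neurons Errfi1 was 13.4, 14.0 and 8.55 CPM against 23.4, 16.9 and 15.3 CPM, from 9 to 23 UMIs a library and without overlap (-0.71 ± 0.32). Fkbp5 there was 36.8, 28.0 and 21.9 CPM against 53.0, 30.9 and 47.8 CPM, which overlapped (-0.63 ± 0.24). Hif3a in Otof neurons overlapped too (-0.64 ± 0.43, from 4 to 19 UMIs a library). No target was called in the Drd1, Drd2 or Otof striatal neurons, the Slc17a7 neurons or the Dlx neurons, and the log2 fold changes of Sgk1 there lay between -0.25 and 0.25.

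**Figure D3:**
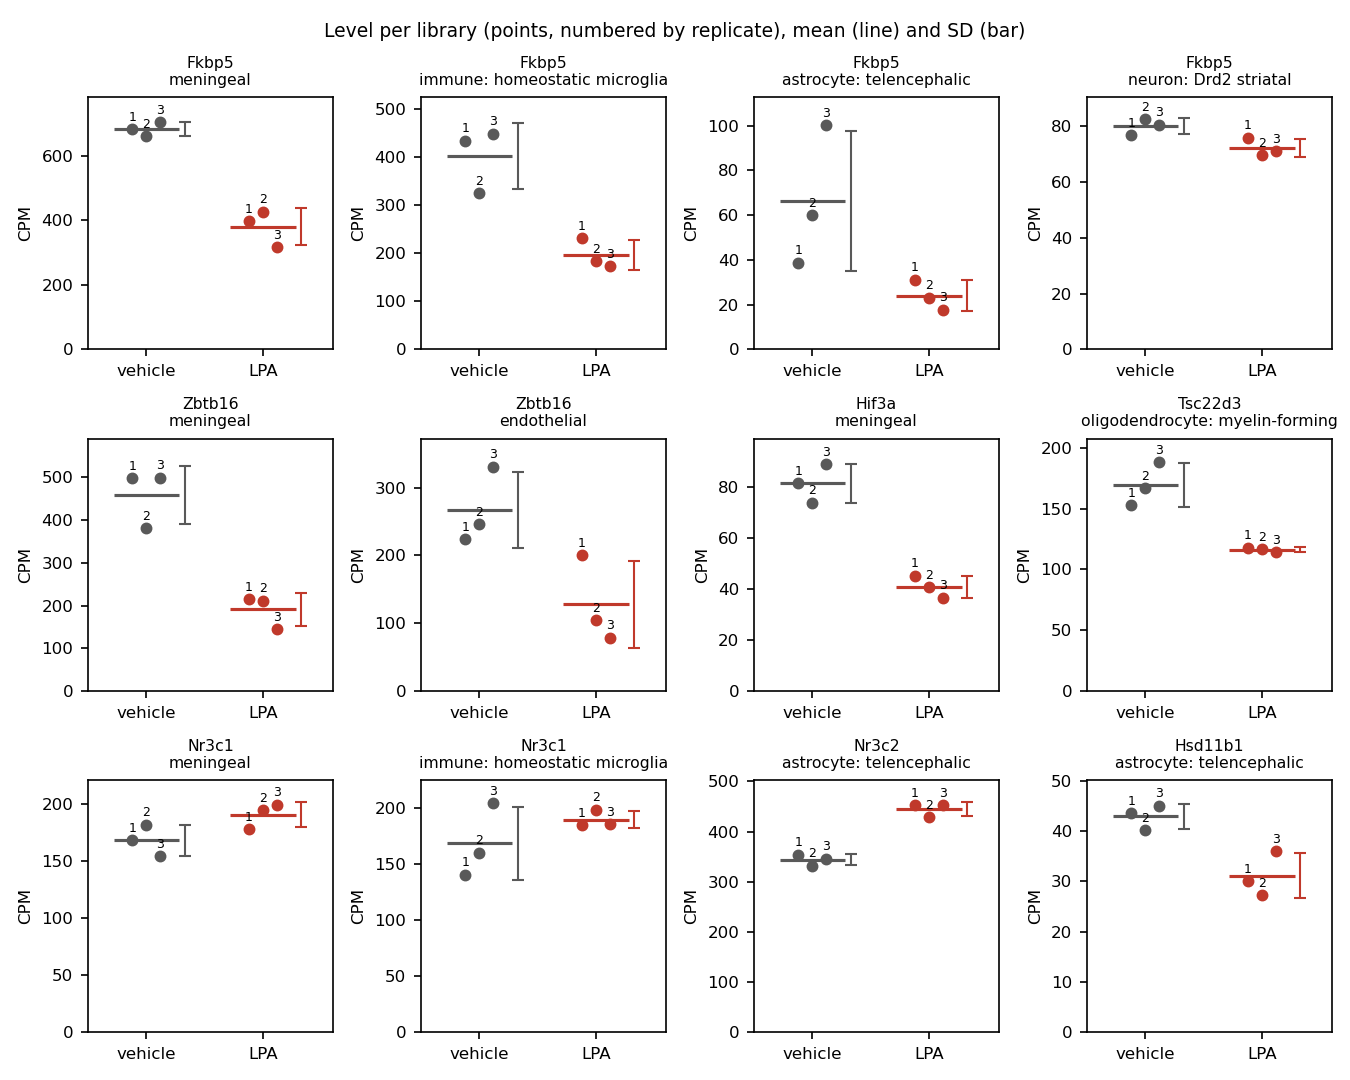
Level in CPM (vertical axes, each from 0) of a member in 1 subtype per panel, with a numbered point per library, a line at the group mean and a bar for the SD, for 3 vehicle (gray) and 3 LPA (red) libraries. Points of Fkbp5 in meningeal cells (317 to 427 CPM after LPA, 661 to 703 after vehicle) and Zbtb16 there are far apart, those of Nr3c1 in meningeal cells and microglia overlap, and Nr3c2 in telencephalic astrocytes is higher in the LPA libraries.

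The number of target pairs called depended on single libraries. With each library left out in turn, 12 to 24 pairs were called lower, 12 without vehicle 3, 14 without LPA 3 and 16 without LPA 2. Zbtb16 was called in 7 subtypes with all libraries and in 2 without vehicle 3, and Klf9 and Errfi1, called in telencephalic astrocytes alone, were called in none without LPA 2, LPA 3, vehicle 2 or vehicle 3. DESeq2 called 15 pairs, all of them among the 25. The share of negative pairs was 81.4% to 86.07% under all alternatives tried. For the 25 called pairs, the log2 fold change stayed negative in each of 14 alternatives, for example -1.95 to -1.52 for Fkbp5 in Slc6a11 astrocytes, -1.72 to -1.09 for Fkbp5 in telencephalic astrocytes and -1.38 to -1.10 for Zbtb16 in meningeal cells. These pairs were picked as lower and the alternatives reuse these libraries, so a negative sign was likely beforehand and is no further support.

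The receptors were open to testing, since the choice did not use their values, although earlier results of these data were known. Nr3c1 was tested in all 21 subtypes and was not called in any by edgeR (lowest adjusted p = 0.534) or by DESeq2. Over all pairs of a gene and a subtype 1.01% were called either way. Having no call in 21 subtypes is near that share and does not show that Nr3c1 was unchanged. At an unadjusted p under 0.05 edgeR gave 0 subtypes lower and 1 higher. Its log2 fold changes lay between -0.18 and 0.30, and 6 of 21 were negative. In meningeal cells Nr3c1 was 178, 195 and 199.7 CPM in LPA libraries and 168, 182 and 154 CPM in vehicle libraries (0.18 ± 0.09), and in homeostatic microglia 185, 199 and 186 CPM against 141, 160.2 and 205 CPM (0.21 ± 0.17). Both overlapped, in nuclei where Fkbp5 was lower by 0.84 and 0.96 on the log2 scale. The highest value was in choroid plexus cells, 155, 156 and 155 CPM against 121, 131 and 128 CPM, without overlap (0.30 ± 0.12, edgeR adjusted p = 0.721).

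Nr3c2 rose in 1 subtype, the telencephalic astrocytes, where 1.36% of all genes tested were called higher. It was 453, 428 and 452 CPM after LPA and 354, 332 and 346 CPM after vehicle, a narrow spread in both groups with a clear gap (0.37 ± 0.07, edgeR adjusted p = 0.00451). The value was 0.35 to 0.40 and the call held in each of the 14 alternatives, with adjusted p between 0.000268 (DESeq2) and 0.0443 (edgeR without LPA 3). In the Slc6a11 astrocytes Nr3c2 was 587, 646 and 665 CPM against 557, 457 and 485 CPM, also without overlap, and missed the threshold (0.34 ± 0.09, edgeR adjusted p = 0.0889). It passed without LPA 1 (edgeR adjusted p = 0.0386), without vehicle 1 (0.0143) and without the filter on low counts (0.0146). In Gfap-rich astrocytes the groups overlapped (0.06 ± 0.10, edgeR adjusted p = 0.799).

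Elsewhere Nr3c2 was higher in each LPA library than in each vehicle library of endothelial cells (168, 186 and 170 CPM against 139, 122 and 124 CPM, 0.44 ± 0.15), pericytes (0.43 ± 0.20) and choroid plexus cells (0.27 ± 0.10), with edgeR adjusted p of 0.401, 0.655 and 0.679. It was not called lower in any of the 21 subtypes by edgeR or DESeq2, and at an unadjusted p under 0.05 edgeR gave 1 subtype lower and 5 higher. The lower one was multiciliated ependymal cells, where the groups overlapped (-0.37 ± 0.18, edgeR adjusted p = 0.411). In the Dlx neurons the groups overlapped (0.14 ± 0.15), but this value turned with the clustering, to -0.66 ± 0.18 (edgeR adjusted p = 0.0522) with no mitochondrial limit and to -0.79 ± 0.18 (0.0298) at Leiden resolution 2, where Nr3c2 was called lower. Summed over all nuclei of a library, named or not, Nr3c2 was instead lower, at 282 ± 12.5 CPM after LPA and 310.2 ± 2.47 CPM after vehicle. In the nuclei with no name Nr3c2 was lower too, without overlap and without TMM scaling. It was 306.3, 351.3 and 288.5 CPM there after LPA and 404.6, 373.5 and 371.8 CPM after vehicle. Meningeal nuclei, with the highest Nr3c2, numbered 306 to 512 in the LPA libraries and 681 to 1202 in the vehicle libraries. In a sum over all nuclei, fewer cells of a type and less RNA per cell cannot be told apart.

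**Figure D4:**
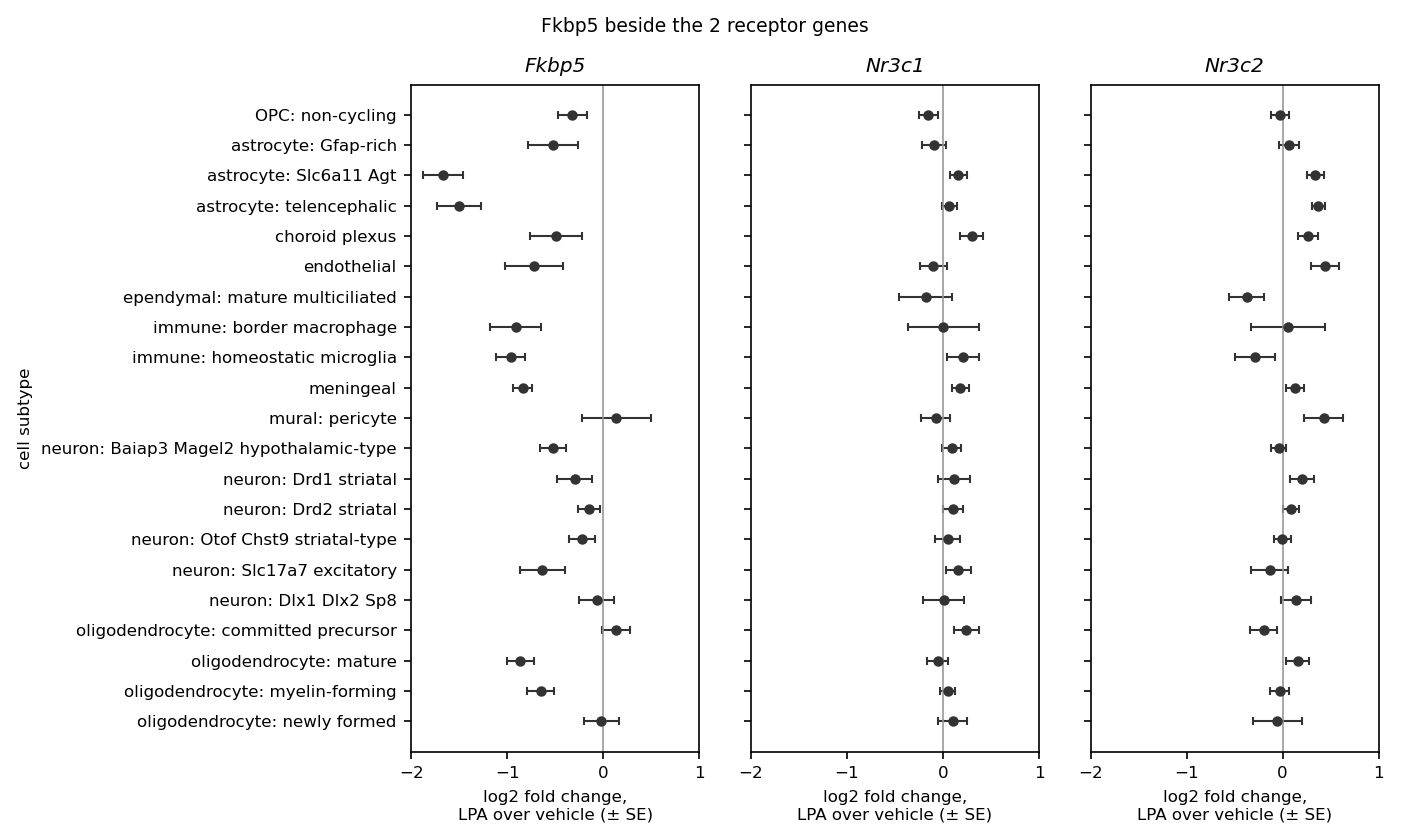
Log2 fold change, LPA over vehicle, with its SE as a bar, of Fkbp5, Nr3c1 and Nr3c2 in each cell subtype (rows), on 1 scale, with a vertical line at 0. Fkbp5 lies left of 0 in 18 of its 20 subtypes, Nr3c1 lies close to 0 throughout, and Nr3c2 lies right of 0 in telencephalic and Slc6a11 astrocytes and endothelial cells.

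Hsd11b1 had counts enough for a test in 2 subtypes. In telencephalic astrocytes it was 30.1, 27.3 and 36.1 CPM after LPA and 43.5, 40.1 and 45.1 CPM after vehicle. The groups did not overlap, and the difference missed the threshold (-0.46 ± 0.13, edgeR adjusted p = 0.059), which it passed without the filter on low counts (edgeR adjusted p = 0.0297). In the Slc6a11 astrocytes the groups overlapped (0.23 ± 0.24, edgeR adjusted p = 0.809). DESeq2 called neither, and at an unadjusted p under 0.05 edgeR gave 1 subtype lower and 0 higher. In telencephalic astrocytes 1 enzyme and 1 receptor gene thus stood in opposite directions in each LPA library, Hsd11b1 lower, though not called, and Nr3c2 higher.

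The wider pathway was described from lists of other genes. The lists were drawn up with earlier results of these data known, so their calls are not fully independent of them. Of 32 other genes known to be induced by glucocorticoids, 29 were tested in at least 1 subtype, in 296 pairs. Of these pairs 15, of 11 genes, fell and 4, of 4 genes, rose, and 69.59% had a negative fold change, with a median of -0.12. Over all pairs 0.441% were called lower, 0.568% higher and 50.81% were negative. Most of the 15 were in telencephalic or Gfap-rich astrocytes, where 1.19% and 3.2% of all genes tested were called lower. DESeq2 called 7 of the pairs lower and 2 higher, and edgeR called 9 lower without LPA 3 and 8 without vehicle 2. Per1, a clock gene with a receptor element, fell in 3 subtypes. In mature oligodendrocytes it was 13.5, 14.7 and 17.8 CPM after LPA and 28.5, 35.5 and 37.5 CPM after vehicle (-1.16 ± 0.20, edgeR adjusted p = 0.00495). It also fell in myelin-forming oligodendrocytes (-0.60 ± 0.09, edgeR adjusted p = 0.0035) and in meningeal cells (-0.67 ± 0.15, edgeR adjusted p = 0.0371).

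Nfkbia, the inhibitor of NF-κB, fell in telencephalic astrocytes (-0.78 ± 0.11, edgeR adjusted p = 0.000365) and Gfap-rich astrocytes (-0.78 ± 0.20, edgeR adjusted p = 0.0111), and had a negative fold change in all 12 subtypes tested. Mt1, a metallothionein, fell in Slc6a11 astrocytes (-0.58 ± 0.12, edgeR adjusted p = 0.03) and telencephalic astrocytes (-0.36 ± 0.09, edgeR adjusted p = 0.039). The 4 that rose were Dusp1 in ependymal cells (2.08 ± 0.40) and Cebpd (1.49 ± 0.28), Bcl6 (0.87 ± 0.18) and Mfsd2a (0.91 ± 0.29) in Gfap-rich astrocytes, the subtype in which Fos and Junb rose. Of all genes tested, 5.78% were called higher in Gfap-rich astrocytes and 1.17% in ependymal cells. The 4 genes that rose are named after their values were seen. Cebpd and Bcl6 are transcription factors, Dusp1 is a phosphatase of MAP kinases, and Mfsd2a is a lipid transporter.

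The genes that hold or assist the receptor were taken next. Of 17 chaperones and coregulators, tested in 337 pairs, 5 pairs of 3 genes fell and 48.37% were negative, with a median of 0.00571. That is close to the share of negative pairs over all genes (50.81%), where 0.441% were called lower. With any 1 library left out 3 pairs were called, and DESeq2 also called 3 in either direction. All 5 were of the Hsp90 and Hsc70 chaperones. They lay in ependymal cells, Gfap-rich and telencephalic astrocytes, where 0.834%, 3.2% and 1.19% of all genes tested were called lower. Hsp90ab1 fell in ependymal cells (-0.86 ± 0.17, edgeR adjusted p = 0.0016) and Gfap-rich astrocytes (-0.43 ± 0.13, edgeR adjusted p = 0.0396), and Hspa8 fell in telencephalic (-0.46 ± 0.09, edgeR adjusted p = 0.00451) and Gfap-rich astrocytes (-0.50 ± 0.14, edgeR adjusted p = 0.0195). None was called higher by edgeR, with 12 pairs higher at an unadjusted p under 0.05 and 1 called higher by DESeq2.

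Of 9 inflammatory genes known to be repressed by glucocorticoids, 3 had counts enough for a test, in 13 pairs. Vcam1, an adhesion molecule, fell in meningeal cells, from 134 to 146 CPM in the vehicle libraries to 72.2 to 88.2 CPM in the LPA libraries (-0.79 ± 0.10, edgeR adjusted p = 0.000396). It was the only one of the 13 called, and is named after its value was seen. Of all genes tested in meningeal cells 0.512% were called lower. None of the 13 was called higher by edgeR or DESeq2, with 1 higher at an unadjusted p under 0.05. Of 14 genes of steroid metabolism and the hormone axis, 10 were tested in 64 pairs. None was called by edgeR or DESeq2, with 2 lower and 3 higher at an unadjusted p under 0.05. Over all pairs of a gene and a subtype 1.01% were called either way. Having none in 64 pairs is near that share and is no result about these genes.

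Besides the smooth muscle nuclei given with the levels of Errfi1, nuclei outside the 21 subtypes gave 2 further views of the members. Activated microglia, named from Spp1, Gpnmb and other markers, numbered 67, 103 and 91 nuclei in LPA 1, 2 and 3 and 0 in the vehicle libraries, and 1 in vehicle 3 at Leiden resolution 2. The study's class of that name also took in nuclei of vehicle brains, so it was drawn differently from this one. They held 16, 16 and 18 Fkbp5 UMIs, or 99.0 (exact Poisson 95% interval 56.6 to 161), 64.3 (36.8 to 105) and 85.5 (50.7 to 135) CPM, here and for the nuclei with no name without TMM scaling. Homeostatic microglia of the same 3 libraries had 232 (193 to 277), 186 (154 to 221) and 174 (138 to 216) CPM, the intervals covering counting error only. Sgk1 went the other way. It was 210 (146 to 294), 164.8 (118.3 to 223.6) and 138 (92.3 to 198) CPM in the activated microglia. In the homeostatic microglia Sgk1 was 84.3 (61.5 to 113), 92.0 (70.4 to 118.2) and 53.6 (34.7 to 79.1) CPM. Nr3c1 was 173, 213 and 171 CPM in the activated and 185, 201 and 186 in the homeostatic microglia. The clusters were made from these cells, so their difference is a description.

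In the nuclei with no name Fkbp5 was 58.0 to 71.2 CPM in the LPA libraries and 107 to 130 in the vehicle libraries, and Nr3c1 was 97.5 to 106 against 92.6 to 99.5. Over all nuclei of a library Fkbp5 was 62.6 ± 6.35 CPM after LPA and 121 ± 13.9 CPM after vehicle, and Nr3c1 was 115 ± 5.87 CPM and 109 ± 4.16 CPM. Sgk1, over all nuclei, was 102 ± 3.50 CPM and 103 ± 5.04 CPM, with overlap, although it was lower in both later stages of oligodendrocytes.

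Some reads may belong to neighbours. Fkbp5, Klf9, Nr3c2 and Hsd11b1 overlap other annotated genes on the same strand, and Hsd11b1 overlaps the protein-coding gene Lamb3 on the other strand, so counts of these genes are uncertain where reads were shared.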

How the data were processed

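The study sorted NeuN-negative nuclei from brains of LPA- and vehicle-injected mice and sequenced 3 libraries of each with the 10x Genomics 3′ kit. The deposited matrices hold raw UMI counts per gene and nucleus, made by the authors with Cell Ranger 4.0.0 on an mm10 pre-mRNA reference that keeps intronic reads. The members and the gene lists were chosen with earlier results of these data known.

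Nuclei with under 300 genes or over 1% mitochondrial UMIs were removed, as in the study's methods. The study also removed nuclei of high UMIs by the interquartile range, with no formula given, and here the limit was the upper quartile plus 1.5 interquartile ranges. The nuclei were clustered and sub-clustered with scanpy 1.11.5 and leidenalg 0.10.2, with members and lists left out of the variable genes, and named by the share and score of fixed markers. The thresholds of that naming were set after the clusters were seen (0.6 for a mixed cluster and 0.5 for a sub-cluster score). The study's SCTransform integration and its transfer of labels from an atlas were not repeated, so differences from the study may come from the rebuilt names. Scrublet marked 12.28% to 15.44% of nuclei per library, and these were kept unless stated.

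UMI counts were summed per library and subtype where each library had at least 10 nuclei. The library was the replicate, whereas the study tested single nuclei by a rank sum test. The sums were tested with edgeR 4.0.16 (filterByExpr, TMM, quasi-likelihood, Benjamini-Hochberg over all genes of a subtype) in R 4.3.3, and a call needed an adjusted p below 0.05 with a group difference of 0.25 or more in log2. DESeq2 1.42.0 was an alternative. The fits were tested on simulated data first. Depth was 48852970 to 65688644 UMIs a library, and low counts limit the precision of the pairs with few UMIs. All 10 members are described in each subtype fitted. Of the other lists (induced genes, repressed genes, receptor partners, steroid metabolism, and early genes of handling) those called in at least 2 subtypes in 1 direction are named, apart from genes said to be named after their values were seen. Of the 8 early and heat shock genes of handling, 6 were tested in 38 pairs, with 3 called higher, Fos in Gfap-rich astrocytes and hypothalamic-type neurons and Junb in Gfap-rich astrocytes. The neuronal subtype called Dlx neurons was named by a marker set for postmitotic neuroblasts, Dlx1, Dlx2, Dlx6os1, Sp8 and Dcx. Poisson intervals use a level of 95%.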

Additional observations from a re-analysis of the deposited data

Results flagged for a closer look

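Of the members and lists, 3 genes had fold changes of opposite sign in a pair of subtypes, every library of one group lying on the same side in each, and the difference between the subtypes was not tested. Klf9 was lower after LPA in mature oligodendrocytes (log2 fold change -0.40) and higher in multiciliated ependymal cells (0.41). Errfi1 was lower in choroid plexus cells (-1.07), from 7 to 26 UMIs a library, and higher in Drd1 striatal neurons (0.55), from 7 to 15 UMIs a library, where the sign turned at Leiden resolution 2 (-0.25). None of these 4 values was called. Mfsd2a, a lipid transporter, was called in both of its subtypes, lower in telencephalic astrocytes (-0.44) and higher in Gfap-rich astrocytes (0.91).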

How the results depend on the processing

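Among the members, 349 of 350 values of called target pairs under the alternatives moved by less than the spread between libraries, and 1 moved, Hif3a in meningeal cells to -1.17 with no mitochondrial limit. None of these reversed in sign, which their selection as lower made likely. Among member pairs not called, 8 values in 7 pairs changed sign and moved by over 0.4. Beside those given with the results they were Hif3a in Slc17a7 neurons (-0.22, and 0.40 without vehicle 2), Tsc22d3 in Otof striatal neurons (0.10, and -0.31 without LPA 1) and Errfi1 in Drd1 neurons (0.55, and -0.25 at Leiden resolution 2). For the 26 other called pairs, 277 values stayed past the threshold and 87 fell below it. For Nr3c2 in Slc6a11 astrocytes and Hsd11b1 in telencephalic astrocytes, which were not called, 4 of 28 values rose past it. Nr3c2 was called higher in 2 subtypes without the filter on low counts, and in 1 to 2 with a library left out (2 without LPA 1 and 2 without vehicle 1). It was called lower in 1 subtype, the Dlx neurons, at Leiden resolution 2 (-0.79, edgeR adjusted p = 0.0298). Hsd11b1 was called lower in 1 subtype without the filter. The other induced genes had 24 pairs called lower and 7 higher without the filter, 7 and 2 by DESeq2, and 8 to 13 lower and 3 to 4 higher with a library left out (9 lower without LPA 3 and 8 without vehicle 2). The fit without the filter called 299 of 22460 genes in meningeal cells, against 135 of 12489 with it. Its share over all subtypes is not given, so its added calls, those of Nr3c2 and Hsd11b1 among them, are no further support. The repressed genes had 2 pairs called without the filter, the partners 3 by DESeq2 and 3 without any 1 library, and the steroid genes 1 at Leiden resolution 2 and 1 with no mitochondrial limit. The cause of these changes was not tested, beyond the different numbers of samples and genes in these fits. The replicate numbers were not taken to pair the libraries, since same-numbered libraries deviated together with r of 0.107, 0.2437 and -0.0327. With the replicate block, 23 of the 25 target pairs stayed called. With a sex term 23 did, with Scrublet calls left out 25, and at Leiden resolution 2, 24 of its 26 calls were shared.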
